A study of Mus musculus with 12 samples.

Results

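The chemokine system of mouse breast tumours was examined across 46 genes of the 25116 in the deposited table. The members were the rows whose gene name was Ccl, Cxcl, Ccr, Cxcr or Ackr followed by a number and, where present, one letter, with 2 receptors left out by the rule. They comprised 28 ligands and 18 receptors. Bulk RNA-seq had been made from 12 tumours of E0771 cells, a single triple-negative breast cancer line of C57BL/6 origin, injected into the mammary fat pads of Tie2CreER;ERKi C57BL/6J mice and collected at day 22. All hosts carried both transgenes, namely a tamoxifen-activated recombinase under the endothelial Tie2 promoter and a knock-in that this recombinase switches on to make endorepellin, the C-terminal fragment of the basement membrane proteoglycan perlecan. Before the cells were injected the mice had received tamoxifen (7 tumours, called induced) or a control treatment (5 tumours). The age of the mice was not given in the labels. Tamoxifen was given to the induced group alone, so its own action and that of endorepellin cannot be told apart.

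Chemokines are small secreted proteins that guide leukocytes along gradients bound to heparan sulphate on vessels and matrix, and they act on receptors coupled to Gi proteins. CC ligands mostly attract monocytes, T cells and eosinophils, ELR-type CXC ligands attract neutrophils, and the interferon-induced CXC ligands attract activated T cells and NK cells through CXCR3. Atypical receptors bind chemokines without G protein signalling and shape the gradients by taking the ligand up. In breast tumours the system is best known for the recruitment of monocytes through CCL2 and its receptor CCR2.

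Many chemokine genes lie side by side in the genome (GRCm38). On chromosome 11 lay 11 of the CC ligands, with Ccl2 from 82035571 to 82037453, Ccl7 from 82045712 to 82047525, Ccl5 from 83525778 to 83530518 and Ccl6 from 83587882 to 83593087. On chromosome 5 lay 8 CXC ligands, with Cxcl2 from 90903871 to 90905938 and Cxcl10 from 92346638 to 92348889. Chromosome 9 held 11 of the receptors, with Ccr1 from 123962124 to 123968692 and Ccr2 from 124101950 to 124113557.

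Upstream sequence is shown for the neutrophil-attracting ligands Cxcl1, Cxcl2 and Cxcl3, which all had their highest value in the same tumour, and for Cxcl10, the most abundant interferon-induced ligand. For Cxcl1 that order rests on only 3 to 25 counts per library. Each runs 5′ to 3′ from 250 to 31 bases before the RefSeq start (GRCm38.p6). Capitals mark matches, on either strand, to a kappaB motif, which was GGG, 3 bases of any kind and TTCC. In Cxcl10 they also mark an interferon-stimulated response element, which was GAAA, 2 bases of any kind and GAAA.
Cxcl1 (chr5:90890995-90891214, plus strand): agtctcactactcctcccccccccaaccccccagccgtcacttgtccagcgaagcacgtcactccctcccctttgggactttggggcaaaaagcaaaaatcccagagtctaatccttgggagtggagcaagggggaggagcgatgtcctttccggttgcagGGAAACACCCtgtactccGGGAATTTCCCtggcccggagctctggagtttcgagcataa
Cxcl2 (chr5:90903649-90903868, plus strand): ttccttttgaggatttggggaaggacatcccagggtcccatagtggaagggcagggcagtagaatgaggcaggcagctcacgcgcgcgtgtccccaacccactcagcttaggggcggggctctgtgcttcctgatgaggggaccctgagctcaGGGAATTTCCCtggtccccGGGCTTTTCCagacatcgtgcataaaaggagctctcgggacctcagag
Cxcl3 (chr5:90785851-90786070, plus strand): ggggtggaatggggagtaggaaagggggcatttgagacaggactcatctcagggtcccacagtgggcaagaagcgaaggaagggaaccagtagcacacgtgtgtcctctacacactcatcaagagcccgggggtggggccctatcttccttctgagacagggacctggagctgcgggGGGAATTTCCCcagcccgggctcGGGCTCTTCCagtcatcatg
Cxcl10 (chr5:92348920-92349139, minus strand): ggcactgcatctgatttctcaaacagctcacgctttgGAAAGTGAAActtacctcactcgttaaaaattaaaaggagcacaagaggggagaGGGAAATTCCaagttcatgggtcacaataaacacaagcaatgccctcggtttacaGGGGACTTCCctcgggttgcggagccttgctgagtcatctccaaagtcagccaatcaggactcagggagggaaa

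Cxcl1, Cxcl2 and Cxcl3 each held 3 kappaB matches, and all 3 genes held the run GGGAATTTCCC, in which 2 matches overlap, 1 on each strand. In Cxcl10 there were 2 kappaB matches and 1 response element. Over both strands of the 250 bases before the start, the kappaB motif occurred in 8 of 37 windows of the 33 members with an entry in the RefSeq table, and in 4.65% of all 32851 windows. The other members with a match were Ccl1, Ccl9, Ccr3 and Ccr6. Members without an entry, among them the abundant ligands Ccl2, Ccl4, Ccl5 and Ccl7, were not searched. The response element occurred in 2 member windows, those of Cxcl10 and Cxcl14, and in 2.98% of all windows. A looser kappaB form, GGG, 5 bases of any kind and CC, was in 21 of the 37 member windows and in 45.8% of all windows, and the form used here was chosen after that was seen. A match is a run of letters and no measure of binding.

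Total counts were 18993192 to 28372821 per library, and levels are given as CPM, the count scaled to a common library size. Control 1 and induced 4 stood apart from the other tumours. Their summed levels of 10 macrophage and monocyte markers were 2109 and 1304 CPM, against 202 to 556 CPM in the other 10 tumours, and of 9 fibroblast markers 3298 and 2020 CPM against 549 to 1212 CPM. Control 2 had the highest sum of 10 neutrophil markers, 232 CPM against 13.4 to 65.3 CPM elsewhere. Of these 10 markers 7 were highest there. Csf3r was instead highest in control 1 (35.8 CPM, against 17.8 CPM in control 2) and Ly6g in induced 6 (2.90 against 1.23 CPM). Mpo and Camp on that list stayed under 1 CPM in each library. Control 1 also had the highest sum of 10 T cell markers, 61.7 CPM against 2.78 to 21.2 CPM. Of the markers of breast epithelium, Krt8, Krt18, Krt14, Krt5, Epcam and Cdh1 summed to only 1.72 to 7.04 CPM, so the defining markers of epithelium were near 0 in tissue labelled as breast carcinoma. In bulk tissue, fewer cells of a type and less RNA per cell cannot be told apart.

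Of the 46 members, 32 passed the filter on low counts and were tested. Measured per exonic kilobase, the scale on which genes can be compared, Ccl2 and Ccl7 had means over 12 tumours far above the rest. These means were 174 and 167 CPM per kilobase, and together made up 51.3% of the summed level of all members. Next came Ccl8 (56 CPM per kilobase), Ccl5 (49.4), Cxcl10 (49.3), Ccl6 (29.6), Ccl12 (22.5) and Ccl4 (22). Ackr3 was the most abundant receptor at 18.3 CPM per kilobase, ahead of Cxcr4 (5.08), Ccr1 (4.62) and Ccr2 (4.16). On this scale the values over 12 tumours overlapped between each ligand and the next in this order, and among Cxcr4, Ccr1 and Ccr2. Those of Ackr3 lay above all values of Cxcr4 but overlapped those of Ccr1 and Ccr2.

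**Figure D1:**
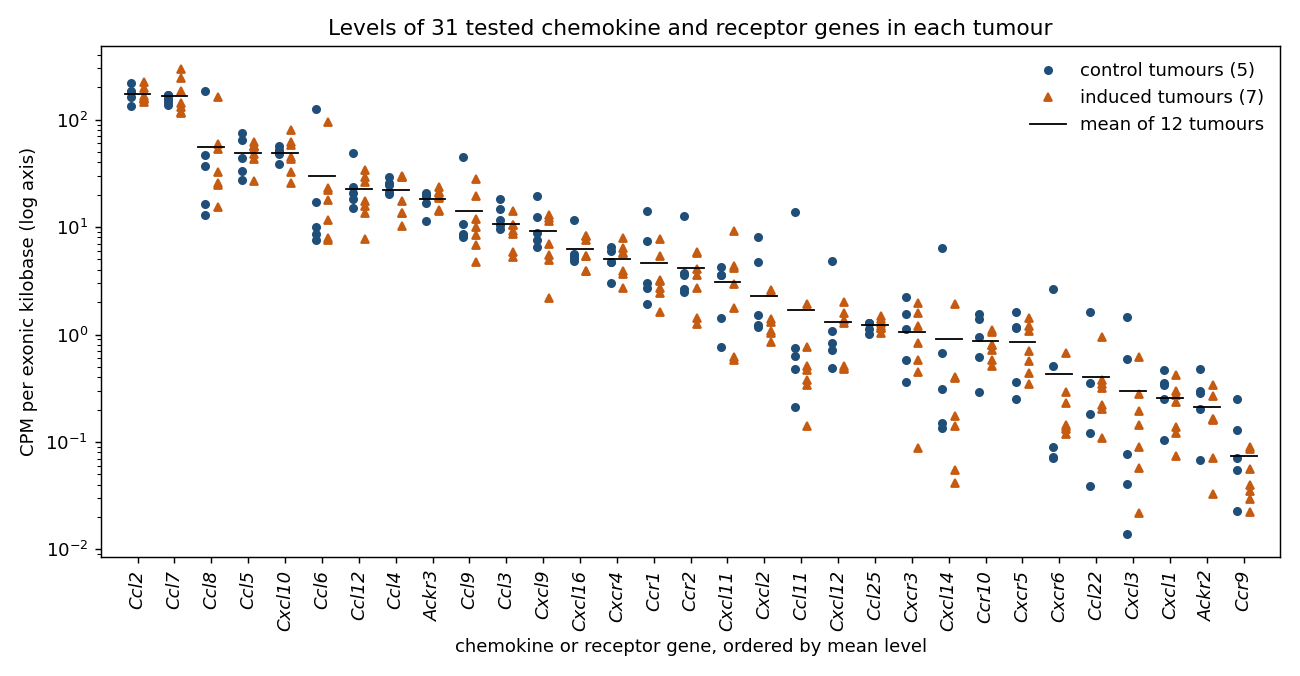
Level of 31 of the 32 tested members in each tumour, in CPM per exonic kilobase on a log axis, with circles for the 5 control tumours, triangles for the 7 induced tumours and a line at the mean of all 12. Ccl2 and Ccl7 lie at the top, while Ccl8, Ccl6, Ccl9, Ccl11 and Cxcl14 each have single tumours far above the others.

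No tested chemokine or receptor gene was called as different between induced and control tumours. The labels give separate tumours and do not say more of how they were replicated, so p-values measure the spread between these samples. By edgeR's quasi-likelihood test 0 of 32 members had an adjusted p under 0.05, where 0% of all 15199 genes tested were called, and every member had an adjusted p of 0.99989. At an unadjusted p under 0.05 there were 2 members, Ccl11 and Cxcl2, both lower in induced tumours, where 1.54% of all genes were lower and 0.592% higher at that level. The 95% intervals of their log2 fold changes, not adjusted for the number of genes, were -4.31 to -0.24 and -2.19 to -0.05. DESeq2 and limma-voom also called 0 members, with 2 and 0 at an unadjusted p under 0.05. At that level DESeq2 had 391 and limma-voom 996 of all 15199 genes. Among the members given with values, DESeq2 gave no adjusted p for Ccl6, Ccl11 and Cxcl14, so it could not call them. The control and induced values overlapped for each of the 32 members, and 0.0592% of all genes had groups that did not overlap.

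Fold changes below 0 were seen for 25 of the 32 members, 16 of 21 ligands and 9 of 11 receptors, against 50.2% of all genes. The median log2 fold change of the members, induced minus control, was -0.35, and that of all genes was 0 to 2 decimals (-0.0008). This tilt rested on control 1. Without that tumour 14 of 32 members were below 0 and the median was 0.05. Without control 1 and control 2 there were 13 of 33 below 0, with a median of 0.12, and without control 1 and induced 4 there were 18 of 31, with a median of -0.10. In limma-voom, which gives deviant libraries less weight, 17 of 32 members were below 0 and the median was -0.04.

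**Figure D2:**
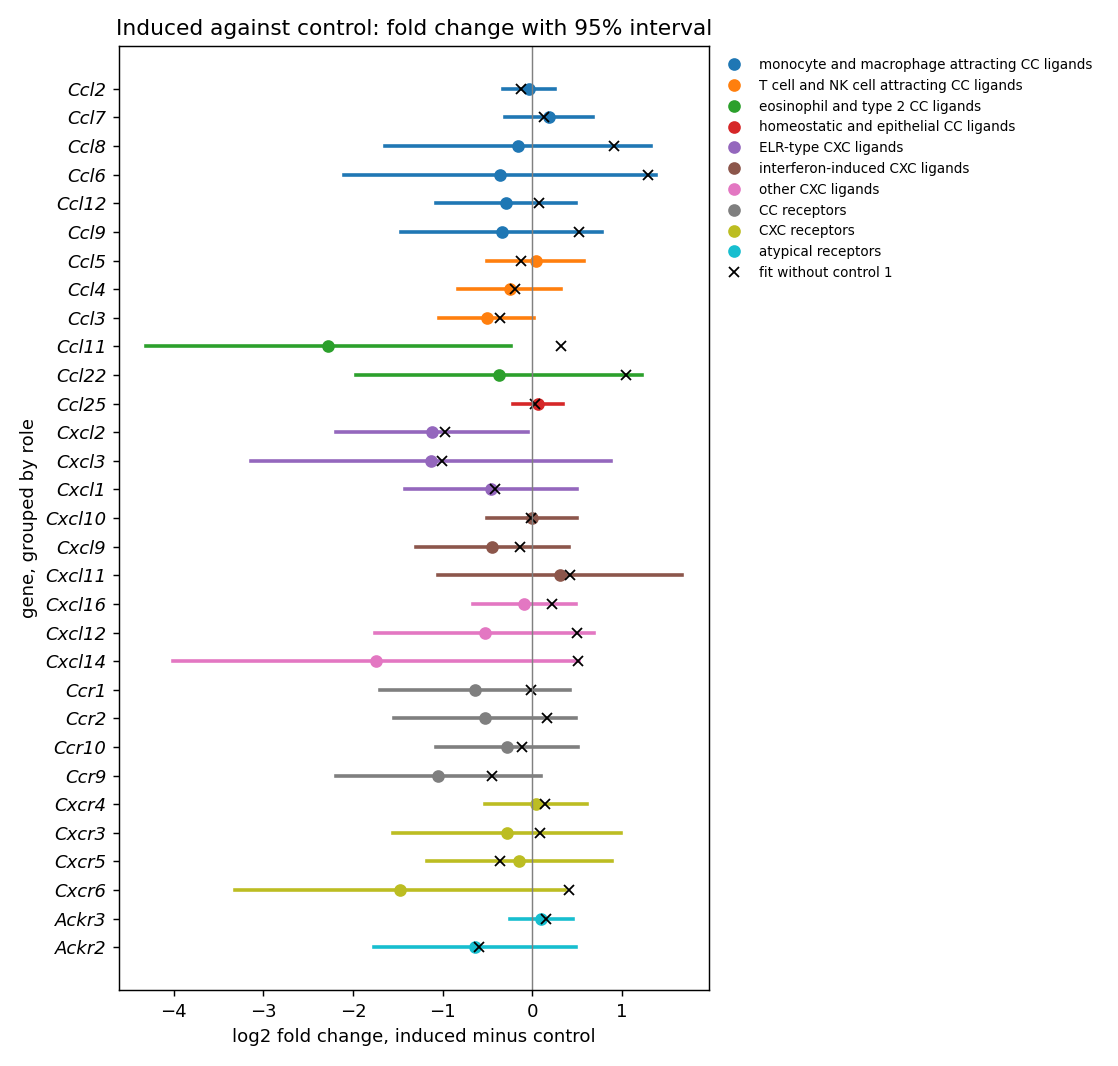
Log2 fold change (induced minus control) of 31 of the 32 tested members with its 95% interval from all 12 tumours, coloured by role, and crosses for the fit without control 1. The intervals of Ccl2, Ccl7, Ccl25 and Ackr3 are narrow and span 0, and the crosses of Ccl8, Ccl6, Ccl9, Ccl11, Cxcl12, Cxcl14 and Cxcr6 lie above 0 although the full fit is below 0.

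**Figure D3:**
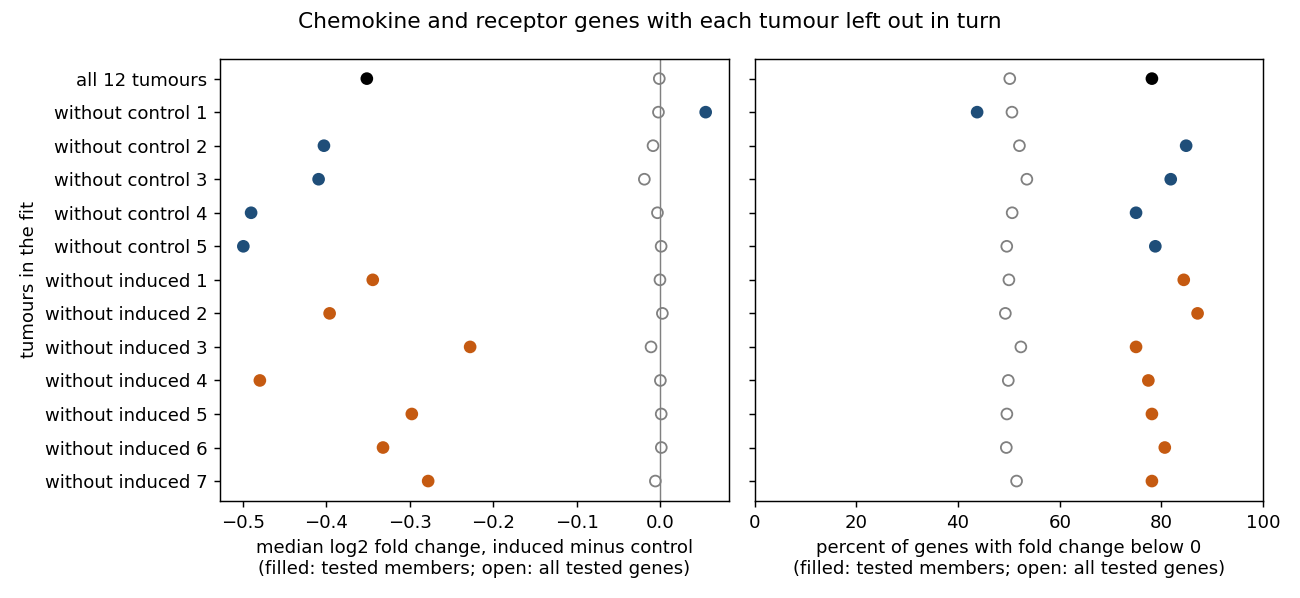
Median log2 fold change (left) and percent of genes with a fold change below 0 (right) with all 12 tumours and with each tumour left out in turn. Filled points are the tested members (blue for control, orange for induced tumours left out, black for all 12) and open points all tested genes. The members' median lies between -0.50 and -0.23 in each fit except that without control 1, where it is 0.05.

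Among the ligands for monocytes and macrophages, Ccl2 varied little between tumours and Ccl6, Ccl8 and Ccl9 varied most, with SDs of log2 CPM within groups of 0.24 for Ccl2 and 0.43 for Ccl7. Ccl2, the main CCR2 ligand, was at 153, 249.8, 184, 211 and 206 CPM in control tumours 1 to 5 and at 166 to 257 CPM in induced tumours (median 180.3). The control mean was 201 ± 35.7 CPM (SD, n = 5) and the induced mean 196 ± 32.9 CPM (SD, n = 7), with a log2 fold change of -0.04 (SE 0.14, 95% interval -0.33 to 0.26). Ccl7, another CCR2 ligand and its neighbour on the chromosome, was at 109, 125, 135, 134 and 116 CPM in control and 91.6 to 236 CPM (median 114) in induced tumours. Both were highest in induced 2, and Ccl7 was high in induced 1 as well. The log2 fold change of Ccl7 was 0.18 (SE 0.23, 95% interval -0.31 to 0.68).

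Ccl6, a macrophage-derived ligand of CCR1, was at 227, 30.6, 18, 13.7 and 15.5 CPM in control tumours 1 to 5 and at 13.7 to 171 CPM in induced tumours (median 32.1). Ccl9, which also acts on CCR1, was at 138, 32.4, 24.9, 24.8 and 26.2 CPM in control and at 14.5 to 85 CPM in induced tumours (median 30.2). In both genes control 1 was highest and induced 4 came next, so each group held one of the high tumours and the groups overlapped. Ccl8, a chemoattractant of monocytes and T cells, was at 94.4, 24, 8.31, 6.67 and 18.9 CPM in control and at 7.79 to 83.6 CPM in induced tumours (median 16.6). Ccl12, a further CCR2 ligand, was at 26, 11, 9.82, 8.13 and 12.7 CPM in control and at 4.15 to 18.2 CPM in induced tumours (median 9.48). The same tumours, control 1 and induced 4, were the highest for Ccl8 and Ccl12, and they had the highest macrophage marker sums given above. The part of macrophage content in these values was not tested. Log2 fold changes were -0.36 (SE 0.81) for Ccl6, -0.34 (SE 0.52) for Ccl9, -0.16 (SE 0.69) for Ccl8 and -0.29 (SE 0.36) for Ccl12. Without control 1 they were 1.29, 0.52, 0.91 and 0.08.

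Of the ligands that attract T cells and NK cells, none of Ccl5, Ccl3 and Ccl4 passed the test, and each had a 95% interval that included 0. Ccl5, a product of T cells, NK cells and many tumour cells, was at 26.3, 41.9, 31.9, 71.9 and 61.6 CPM in control tumours 1 to 5. In induced tumours it ran from 25.9 to 59.4 CPM, with a median of 53.5 CPM. Unlike most ligands it was low in control 1. Ccl3, a macrophage inflammatory protein that binds CCR1, was at 13.9, 11.4, 8.89, 8.08 and 7.35 CPM in control and at 4.05 to 10.8 CPM in induced tumours (median 7.01). Ccl4, its close relative, was at 19.3, 16.3, 17.1, 13.5 and 13.9 CPM in control and at 6.73 to 19.6 CPM in induced tumours (median 11.6). The ranges overlapped for both, and the highest Ccl4 value of all 12 tumours was that of induced 1. The log2 fold change was 0.04 (SE 0.25, 95% interval -0.51 to 0.58) for Ccl5, -0.51 (SE 0.24, interval -1.04 to 0.02) for Ccl3 and -0.25 (SE 0.27, interval -0.83 to 0.32) for Ccl4. Ccl3 and Ccl4 kept a fold change below 0 in each alternative fit, and neither was called in any.

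Ligands of eosinophils and type 2 responses were scarce. Ccl11, eotaxin, which is made by fibroblasts among other cells and recruits eosinophils through CCR3, was at 14.9 CPM in control 1 and at 0.806, 0.684, 0.227 and 0.518 CPM in control tumours 2 to 5. Induced tumours lay between 0.153 and 2.07 CPM (median 0.506), with induced 4 the highest. The log2 fold change was -2.28 (SE 0.94, unadjusted p = 0.0305, edgeR quasi-likelihood test), and without control 1 it was 0.33. Ccl22, a dendritic cell and macrophage product that attracts regulatory T cells through CCR4, was at 3.74, 0.28, 0.831, 0.0908 and 0.424 CPM in control and at 0.253 to 2.22 CPM in induced tumours (median 0.738). Its highest values were those of control 1 and induced 2. Ccl17, the other CCR4 ligand, and Ccl24 and Ccl1 were not tested, with no library above 0.628 CPM.

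Ccl25, the ligand of the gut-homing receptor CCR9, was the steadiest of the tested members. It was at 8.32, 9.46, 9.43, 9.62 and 7.59 CPM in control tumours 1 to 5 and at 7.75 to 11.2 CPM in induced tumours (median 8.87). Its SD of log2 CPM within groups was 0.17, where the median was 0.89 over the tested members and 0.32 over all genes. The log2 fold change was 0.06 (SE 0.13, 95% interval -0.22 to 0.34). Of its 7445 exonic bases, 2.74% also lie in exons of Elavl1 on the opposite strand. Ccl27a, a skin chemokine, was not tested and reached 0.898 CPM at most.

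Of the neutrophil-attracting ELR-type ligands, Cxcl1, Cxcl2 and Cxcl3 were highest in control 2, the tumour with the highest neutrophil marker sum, and Cxcl5 was highest in control 1. Cxcl2, which acts on the neutrophil chemokine receptor, was at 9.71, 16.6, 2.54, 2.45 and 3.11 CPM in control tumours 1 to 5 and at 1.76 to 5.36 CPM in induced tumours (median 2.69). Cxcl3 was at 2.08 and 5.12 CPM in control 1 and control 2 and at 0.0489 to 0.272 CPM in the other 3 control tumours, and at 0.0763 to 2.14 CPM in induced tumours (median 0.508). Cxcl1 was at 0.659, 0.876, 0.196, 0.635 and 0.471 CPM in control and at 0.139 to 0.792 CPM in induced tumours (median 0.443). It had only 3 to 25 counts per library, and induced 1 at 0.792 CPM came close to control 2. The groups overlapped for each of these 3 genes. The log2 fold changes were -1.12 (SE 0.50, unadjusted p = 0.0408, edgeR quasi-likelihood test) for Cxcl2, -1.13 (SE 0.93) for Cxcl3 and -0.46 (SE 0.45) for Cxcl1. For Cxcl2 the value was -0.51 without control 2, -0.97 without control 1 and 0.23 without both. The part of neutrophil content in these values was not tested. Cxcl5, a further ELR-type ligand, was not tested. It was at 6.07 CPM in control 1, 1.40 CPM in control 2, 1.03 CPM in induced 4 and at most 0.103 CPM in the other tumours.

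Of the interferon-induced ligands of CXCR3, only Cxcl10 was among the most abundant members, and none separated the groups. Cxcl9 and Cxcl11 were at 9.28 and 3.10 CPM per exonic kilobase. Cxcl10 was at 108, 86.5, 127, 115 and 119 CPM in control tumours 1 to 5 and at 57.7 to 180.1 CPM in induced tumours (median 100.3). Its means were 111 ± 15.4 CPM and 111 ± 41.7 CPM (SD, n = 5 and n = 7), with a log2 fold change of 0 to 2 decimals (0.0012, SE 0.23, 95% interval -0.50 to 0.50). Cxcl9, the ligand most dependent on interferon gamma, was at 58.8, 22.8, 37.8, 19.7 and 26.7 CPM in control and at 6.63 to 39.4 CPM in induced tumours (median 21.2). Cxcl11, which also binds the atypical receptor ACKR3, was at 13.7, 5.40, 2.93, 13.5 and 16 CPM in control and at 2.18 to 34.9 CPM in induced tumours (median 11.3). C57BL/6 mice carry a frameshift in Cxcl11, so its mRNA there does not stand for a full-length protein. Cxcl10, Cxcl9 and Cxcl11 shared their lowest tumour, induced 3, and Cxcl10 and Cxcl11 their highest, induced 2. Interferon gamma itself, Ifng, had 0 counts in induced 3, which allows at most 0.158 CPM in any library, against 0.189 to 3.40 CPM elsewhere. Ifng was highest in control 1, as was Cxcl9, and was at 1.03 CPM in induced 2. In control 5 Ifng was at 0.189 CPM, with Cxcl10 at 119 and Cxcl11 at 16 CPM. Whether these ligands followed Ifng was not tested. Log2 fold changes were -0.45 (SE 0.40) for Cxcl9 and 0.31 (SE 0.63) for Cxcl11. Of the exonic bases of Cxcl11, 41.7% overlap a processed pseudogene on the opposite strand, and of those of Cxcl10, 5.91% overlap Art3.

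Of the remaining CXC ligands, Cxcl12, Cxcl13, Cxcl14 and Cxcl16 had control 1 as their highest tumour, and Cxcl17 was not tested, with at most 3 counts in any library. Cxcl12, the stromal ligand of CXCR4 and ACKR3, was at 39.4, 8.83, 5.82, 6.76 and 4.01 CPM in control tumours 1 to 5 and at 3.93 to 16.3 CPM in induced tumours (median 10.4). Cxcl14, an epithelial and fibroblast chemokine, was at 11.7, 1.23, 0.244, 0.272 and 0.566 CPM in control and at 0.0763 to 3.54 CPM in induced tumours (median 0.317). Induced 4 came next for both, the order also seen in the fibroblast marker sums, and the part of fibroblast content in these values was not tested. Cxcl16, a membrane-bound ligand of CXCR6 on macrophages and dendritic cells, was at 35, 15.6, 14.6, 17 and 16.1 CPM in control and at 11.7 to 25.2 CPM in induced tumours (median 16.4). Of its exonic bases 18.3% overlap Zmynd15 on the opposite strand. Log2 fold changes were -0.53 (SE 0.57) for Cxcl12, -1.74 (SE 1.05) for Cxcl14 and -0.09 (SE 0.27) for Cxcl16, and without control 1 they were 0.50, 0.51 and 0.22. Cxcl13, the ligand that draws B cells into follicles, was not tested, with 3.68 CPM in control 1 and at most 0.812 CPM elsewhere.

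Among receptors of the CC class, Ccr2, Ccr1 and Ccr9 had their highest value in control 1. Ccr2, the monocyte receptor, was at 86.5, 24.5, 17.8, 17 and 25.4 CPM in control tumours 1 to 5 and at 8.55 to 40.0 CPM in induced tumours (median 24.1). Ccr1, expressed on monocytes and neutrophils, was at 40.0, 21.2, 8.55, 5.40 and 7.73 CPM in control and at 4.54 to 21.8 CPM in induced tumours (median 8.93). For both Ccr2 and Ccr1 the second tumour was induced 4. Log2 fold changes were -0.53 (SE 0.47) for Ccr2 and -0.64 (SE 0.49) for Ccr1, and 0.16 and -0.02 without control 1. Ccr9, the receptor of Ccl25 on thymocytes and gut-homing lymphocytes, was at 2.57, 0.561, 0.733, 1.32 and 0.236 CPM in control and at 0.229 to 0.924 CPM in induced tumours (median 0.406). Its log2 fold change was -1.05 (SE 0.53, unadjusted p = 0.0669, edgeR quasi-likelihood test) and -0.45 without control 1. Of the exonic bases of Ccr9, 18.8% overlap AC165425.1 on the opposite strand and 2.62% the noncoding gene Gm17200 on the same strand. Ccr10 was at 0.499 to 2.66 CPM in control and 0.876 to 1.88 CPM in induced tumours. Ccr3, Ccr4, Ccr6 and Ccr8 were not tested. Ccr4, the receptor of Ccl22, reached 0.681 CPM and Ccr6 0.363 CPM, both in control 4. Ccr3, the eotaxin receptor of eosinophils, and Ccr8, a receptor of regulatory T cells, reached 2.57 and 1.49 CPM, both in control 1, the tumour with the highest Ccl11. Ccr8 had 0 counts in 8 libraries, which allows at most 0.158 CPM in any of them, counting error only.

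Among CXC receptors, Cxcr4, the receptor of Cxcl12 on leukocytes and many tumour cells, was level. It was at 11.8, 5.43, 8.50, 10.9 and 8.62 CPM in control tumours 1 to 5 and at 4.89 to 14.4 CPM in induced tumours (median 10.3), with a log2 fold change of 0.04 (SE 0.26, 95% interval -0.53 to 0.61). Cxcr3, the receptor of Cxcl9 and Cxcl10 on activated T cells, was at 3.85, 0.631, 2.69, 0.999 and 1.93 CPM in control and at 0.152 to 3.41 CPM in induced tumours (median 1.44). Cxcr6, a marker of resident T cells and NKT cells, was at 5.10, 0.175, 0.977, 0.136 and 0.141 CPM in control and at 0.229 to 1.29 CPM in induced tumours (median 0.277). Control 1 and induced 6 were the highest tumours for both receptors, as they were for the T cell marker sum at 61.7 and 21.2 CPM. The part of T cell content in these values was not tested. Cxcr5, the follicular homing receptor, was instead low in control 1, at 1.21, 0.841, 3.81, 5.36 and 3.91 CPM in control and at 1.14 to 4.71 CPM in induced tumours (median 2.36). Log2 fold changes were -0.28 (SE 0.59) for Cxcr3, -1.48 (SE 0.86) for Cxcr6 and -0.15 (SE 0.48) for Cxcr5. Cxcr6 was at 0.41 without control 1. Cxcr1 was not tested and had at most 7 counts in any library.

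Ackr3, the scavenger receptor of Cxcl12 found on tumour and vessel cells, was the most abundant of the tested receptors and varied least within groups, with an SD of 0.31 on the log2 scale. Control tumours 1 to 5 held 68.8, 38.2, 56.5, 65.2 and 65.2 CPM, and induced tumours 47.5 to 79 CPM (median 64). The log2 fold change was 0.10 (SE 0.16, 95% interval -0.25 to 0.45), and it was -0.03 without control 2, the lowest tumour. Ackr2, which clears inflammatory CC ligands, was at 0.21 to 1.5 CPM in control and 0.103 to 1.06 CPM in induced tumours, with a log2 fold change of -0.64 (SE 0.52). Ackr1, the Duffy antigen receptor of venules, and Ackr4 were not tested. Ackr1 reached 1.87 CPM in control 1, and 25.7% of its exonic bases overlap Cadm3 on the same strand.

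Control 1 was the highest tumour for 17 of the 32 tested members, where it was the highest for 16.3% of all genes. Control 1 and induced 4, in either order, were the 2 highest tumours for 10 members, among them Ccl6, Ccl8, Ccl9, Ccl11, Ccl12, Cxcl12, Cxcl14, Ccr1 and Ccr2, where that held for 8.01% of all genes. Induced 2 was the highest tumour for 4 tested members, Ccl2, Ccl7, Cxcl10 and Cxcl11, where it was the highest for 6.13% of all genes. Control 2 was the highest for 4 as well, Cxcl1, Cxcl2, Cxcl3 and Ccr10, against 9.09% of all genes. The SD of log2 CPM within groups ran from 0.17 for Ccl25 to 1.79 for Cxcl14.

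**Figure D4:**
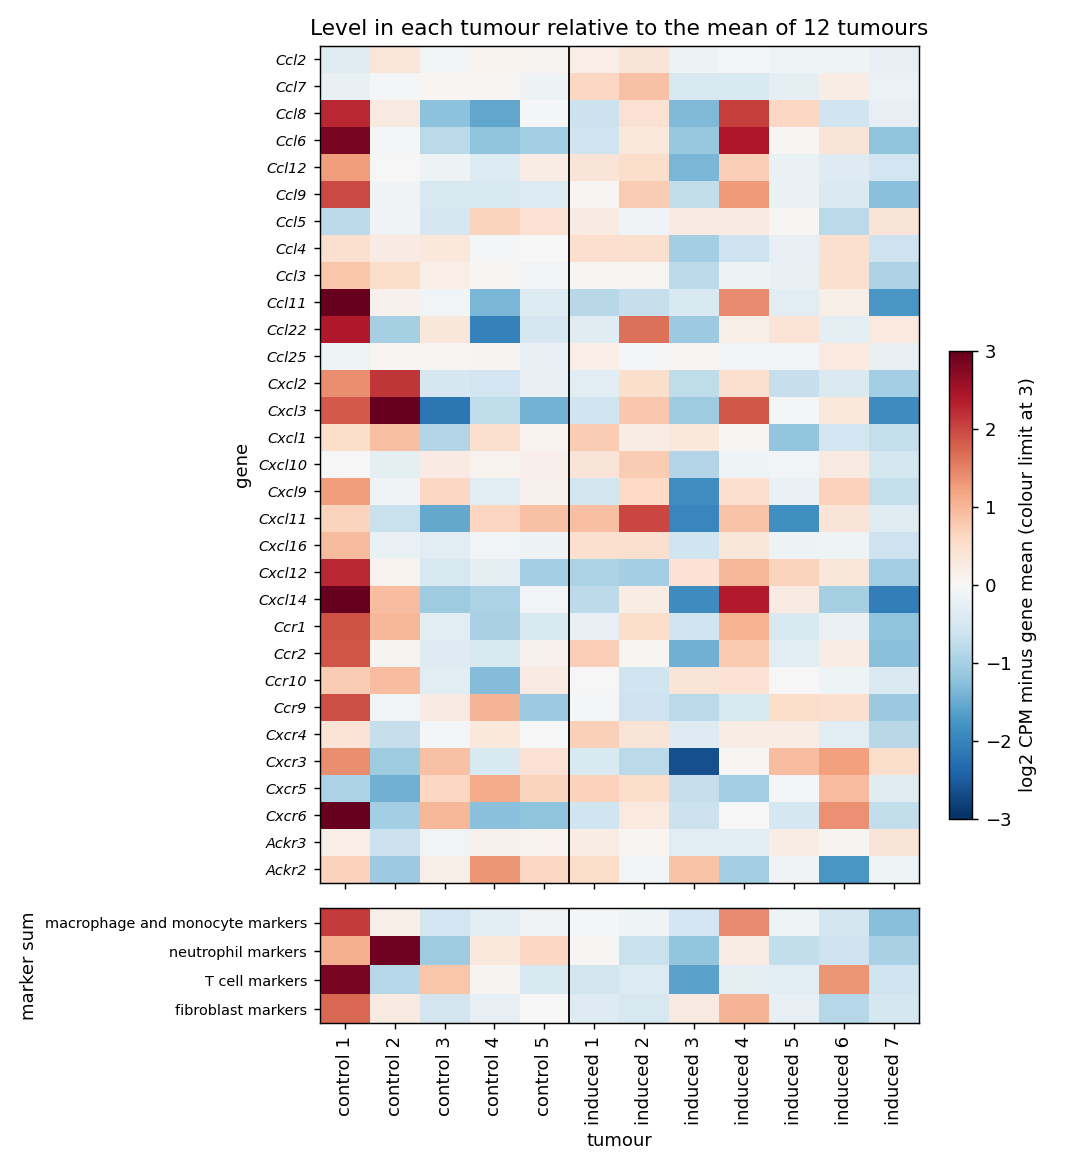
Log2 CPM of 31 of the 32 tested members in each tumour minus the mean of that gene over 12 tumours, with 4 summed marker lists drawn the same way beneath and a line between control and induced tumours. Control 1 and induced 4 share red cells for Ccl8, Ccl6, Ccl9, Ccl11 and Cxcl14 with the macrophage and fibroblast markers, and control 2 stands out for Cxcl2, Cxcl3 and the neutrophil markers.

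Ligands and their receptors were not always highest in the same tumour. Both genes were measured in 9 of the listed ligand and receptor pairs and tested in 6. In 3 of these, Ccl3 with Ccr1, Cxcl9 with Cxcr3 and Cxcl16 with Cxcr6, ligand and receptor peaked in the same tumour, control 1. Ccr2 also peaked there, while its ligand Ccl2 was at its highest in induced 2. Cxcl12 peaked in control 1, Cxcr4 in induced 1 and Ackr3 in induced 7.

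Other genes of the chemokine system did not pass the test either. Of 47 such genes outside the name pattern, 45 were tested and 0 were called (edgeR, adjusted p under 0.05), with 38 below 0, 7 above 0 and a median log2 fold change of -0.20, where 50.2% of all genes were below 0. At an unadjusted p under 0.05 there were 7, all lower, where 1.54% of all genes were lower at that level, namely Cx3cr1, Dock2, Rac2, Coro1a, Dpp4, Il1b and Ltb. Cx3cr1 was at 3.54, 0.701, 1.51, 0.817 and 0.189 CPM in control tumours 1 to 5. In induced tumours it was at 0.0369 to 0.724 CPM, so the groups overlapped at low levels. Its log2 fold change was -2.64 (SE 0.74, unadjusted p = 0.0029, edgeR quasi-likelihood test). The 10 migration effectors downstream of the receptors all had fold changes below 0, with a median of -0.73. Each of them was highest in control 1. Rac2, the GTPase of blood cells that drives actin assembly, was at 84.1, 22.6, 12.9, 20.6 and 23.9 CPM in control tumours 1 to 5 and at 9.73 to 25.8 CPM in induced tumours, with a log2 fold change of -1.17 (SE 0.41). The 7 G protein and arrestin genes had a median of -0.01. The part of leukocyte content in these values was not tested. Without control 1, 31 of the 45 tested genes were below 0 and the median was -0.04. In limma-voom 38 were below 0, with a median of -0.19. Without control 1 and induced 4 there were 35 (median -0.12), and without control 1 and control 2 there were 24 (median -0.03).

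In the authors' deposited table, 0 of the 42 members with an adjusted p had one under 0.05, where 0% of all genes in it did, and 4 members had an unadjusted p under 0.05. Those were Ccr3, Cxcl2, Cxcl13 and Ccl3, all lower in induced tumours, where 1.92% of the genes in the authors' deposited table with a p-value were lower at that level. For 31 of the 32 tested members the authors' deposited table and the edgeR fit had the same sign, and Cxcl10 was the exception. The authors gave no p-value for Ccl6, Ccl11, Cxcl14 and Ccr8, so these could not be called there.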

How the data were processed

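RNA-seq libraries of 12 tumours (5 control, 7 induced) were analysed from one deposited table. Its raw counts per Ensembl gene were made by the authors on GRCm38 (mm10), per the submitters' processing notes, and for the aligner, counter, annotation and strand setting the sources used here name nothing. The deposited regularized log2 values were not used for tests. The authors' log2 fold changes, signed fold changes and p-values, named so per the file headers, are quoted only as such. No source names the authors' test. The labels' culture protocol describes other cells and was not used.

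Counts were tested with edgeR 4.0.16 (R 4.3.3; TMM scaling, filterByExpr with a minimum count of 10, robust quasi-likelihood F test), with Benjamini-Hochberg adjustment over all 15199 genes kept of 25116 and a threshold of 0.05. CPM used the TMM-scaled library size, and level per kilobase used exonic length in GENCODE M21, in which all 46 members were found. Of the members, 14 had too few counts to be tested. No rows without a gene were present. Totals of 18993192 to 28372821 counts make 3 counts equal to 0.106 to 0.158 CPM, the limit that a count of 0 allows, for counting error only. No libraries of one group agreed within sampling noise (chi-square per gene 12.99 or more). Genes given with values were the 10 most abundant per kilobase, the 6 with the smallest unadjusted p in each direction and the genes of listed ligand and receptor pairs where measured, and the others follow by role. The counts cover all 46 members, of which 1 tested member is not reported here by name or drawn. The members and all lists were chosen with earlier results of these data known. The kappaB motif was tightened after a looser form proved common. Alternatives were DESeq2 1.42.0, limma-voom 3.58.1 with quality weights, other scalings and filters, a replicate block and leaving out tumours. The fitting script was tested on simulated data.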

Additional observations from a re-analysis of the deposited data

Results flagged for a closer look

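Single tumours stood far from the rest of their group in 18 of 54 groups of the members given with values, by Dixon's ratio, which is the gap to the nearest tumour divided by the range of the group. The critical value is 0.710 for 5 tumours and 0.568 for 7. Chance flags about 1 in 20 groups, and over all tested genes 10.42% of control and 6.76% of induced groups passed it. All 11 control groups so marked had control 1 as the highest tumour. The ratios there were 0.96 for Ccl11, 0.933 for Ccl9, 0.921 for Ccl6, 0.914 for Cxcl14, 0.88 for Cxcl16, 0.879 for Ccr2, 0.864 for Cxcl12, 0.83 for Cxcr6, 0.802 for Ccl8, 0.797 for Ccl22 and 0.745 for Ccl12. Among induced tumours, induced 4 was the far tumour for Ccl6 at 0.824, Cxcl14 at 0.809, Ccl8 at 0.703 and Ccl11 at 0.647. Induced 2 was the far tumour for Ccl22 at 0.682 and Cxcl11 at 0.568, and induced 6 for Cxcr6 at 0.682.

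Of 28 groups of marker sums, 10 were far in the same sense. Control 1 was high for eosinophil and mast cell markers at a ratio of 0.949, lymphatic endothelial markers at 0.912, macrophage markers at 0.873, T cell markers at 0.816 and fibroblast markers at 0.797. Of the 8 eosinophil and mast cell markers 6 were found, without the eosinophil genes Prg2 and Epx. Siglecf stayed under 1 CPM and was highest in control 4. That sum therefore came from mast cell genes, such as Mcpt4 at 37.8 CPM in control 1, and does not show eosinophils. Induced 4 was high for lymphatic endothelial markers at 0.92 and macrophage markers at 0.751, and induced 6 for T cell markers at 0.766. Of the 3 lymphatic endothelial markers only Lyve1 set induced 4 (67 CPM) and control 1 (31.3 CPM) apart. Flt4 peaked elsewhere, with 2.63 CPM for induced 2, and Prox1 stayed under 1 CPM throughout. The lymphatic sum therefore followed Lyve1 and does not by itself show lymphatic endothelium. Control 2 was high for neutrophil markers at 0.767 and control 4 for skeletal muscle markers at 0.925. The part of cell content in the chemokine values was not tested.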

How the results depend on the processing

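No gene was called in any of the 22 alternatives. Genes at an unadjusted p under 0.05 numbered 324 by edgeR, 391 by DESeq2, 996 by limma-voom and 108 with the replicate block. Of 585 alternative fold changes of the 27 members given with values, 507 kept their direction, and Ccl3, Ccl4, Ccl7, Ccl25 and Cxcl9 kept it throughout. The cause of the reversals below was not tested. In limma-voom the reversed log2 fold changes were Ccl8 0.44, Ccl5 -0.22, Ccl6 0.65, Ccl9 0.24, Cxcl16 0.16, Ccr1 0.0584, Cxcl11 -0.20, Cxcl12 0.26, Cxcr6 0.58, Ccl22 0.99 and Ccr9 0.0917. Cxcl10, at 0.0012, was -0.0064 with DESeq2 and with RLE size factors, -0.019 with library size alone, -0.0074 without the filter, -0.0101 with a filter of 1 CPM and -0.0383 with the replicate block. With the replicate block the other reversed values were Ccl2 0.0315, Ccl8 0.28, Ccl6 0.32, Ccl9 0.16, Cxcl16 0.0714, Cxcl12 0.0454 and Ccl22 0.46, and 18 of 32 members were below 0. Control and induced tumours shared only a number, since the deviations of same-numbered tumours correlated at -0.31, -0.51, -0.51, -0.53 and 0.21 for numbers 1 to 5, and 1 of 5 control tumours correlated best with its own number. The joint removals were chosen after seeing the data. Without control 1 and induced 4, reversed values were Ccl8 0.30, Ccl5 -0.14, Ccl6 0.47, Ccl9 0.20, Cxcl16 0.16, Cxcl12 0.29, Cxcr3 0.13 and Ccl22 1.08. Without control 1 and control 2, 13 members were below 0, the median was 0.12, and reversed values were Ccl8 1.28, Ccl5 -0.21, Cxcl10 -0.12, Ccl6 1.6, Ccl12 0.11, Ccl9 0.62, Cxcl16 0.21, Cxcr4 -0.0186, Ccr1 0.55, Ccr2 0.24, Cxcl2 0.23, Ccl11 0.57, Cxcl12 0.70, Cxcl14 1.21, Cxcr6 0.17 and Ccl22 0.90. With each tumour left out in turn, the members below 0 numbered 14 to 28 and their median was -0.50 to 0.0548, and reversed genes ranged over Ackr3 -0.0337 to 0.16, Ccl11 -2.88 to 0.33, Ccl12 -0.46 to 0.0799, Ccl2 -0.13 to 0.0436, Ccl22 -0.82 to 1.05, Ccl5 -0.12 to 0.24, Ccl6 -1.19 to 1.29, Ccl8 -0.77 to 0.91, Ccl9 -0.67 to 0.52, Ccr2 -0.71 to 0.16, Cxcl10 -0.16 to 0.11, Cxcl11 -0.18 to 0.53, Cxcl12 -0.76 to 0.50, Cxcl14 -2.93 to 0.51, Cxcl16 -0.19 to 0.22, Cxcr3 -0.55 to 0.091, Cxcr4 -0.11 to 0.15, Cxcr5 -0.40 to 0.15 and Cxcr6 -1.78 to 0.41. The median SE of 0.48 for a member limits what 12 tumours can show. The median of all genes stayed within 0.0368 of 0 in each alternative.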
